A study of Mus musculus with 8 samples.

Results

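The piRNA pathway and germ granule factors were followed in germ cells of 15-day testes in which *Mgat2*, the gene of the GlcNAc-transferase needed to build complex N-glycans, had been conditionally deleted. The set held 33 genes, found by symbol among the 55357 genes of the count table: 11 Tudor proteins, 12 piRNA biogenesis genes, 2 DEAD-box helicases, 6 transposon silencing genes and 2 methylosome genes. The PIWI genes themselves were not in the set and were kept in a separate list. Controls were 4 *Mgat2*[F/F] males with floxed *Mgat2* alleles and cKO mice were 4 *Mgat2*[F/F]:*Stra8*-iCre males, all labelled C57BL/6 and sacrificed 15 days after birth, with 1 non-stranded library of polyadenylated RNA for each mouse. The *Stra8*-iCre transgene expresses Cre from the *Stra8* promoter, first in spermatogonia, so that later germ cells inherit the deletion while Sertoli and other somatic cells keep *Mgat2*. Controls carried the floxed alleles without the transgene, so that deletion of *Mgat2* and presence of iCre cannot be told apart.

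PIWI-interacting RNAs (piRNAs) are small RNAs of the germ line that guide PIWI proteins to transposon and other transcripts. Precursor transcripts are unwound and cleaved at the mitochondrial surface, loaded onto PIWI proteins, trimmed and methylated at the 3′ end. Tudor proteins bind methylated arginines of PIWI proteins and hold the machinery together in germ granules, the intermitochondrial cement of spermatocytes and the chromatoid body of round spermatids. In fetal germ cells piRNAs direct DNA methylation of transposons. In pachytene spermatocytes a second, much larger group of piRNAs is made, and genes of the pathway are transcribed with the factors MYBL1 and TCFL5.

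*Mgat2* was lower on average in the cKO libraries but the genotypes overlapped. It stood at 69.8, 31.8, 64.3 and 59.8 CPM (counts scaled by library size, normalized with TMM factors) in control samples 1 to 4 and at 35.3, 20.1, 37.6 and 16.0 in cKO samples 1 to 4. The lowest control fell between the cKO values. The log2 fold change was −1.05 ± 0.36 (SE, n = 4 and 4) with an adjusted p of 0.47 in edgeR's quasi-likelihood test and 0.025 in DESeq2. A two-sided exact permutation test over the 70 assignments gave p = 0.086, where 0.029 is the smallest p this design allows. The authors had other evidence of the deletion. In stained sections of 15-day cKO testes they found germ cells without MGAT2 and without binding of L-PHA, a lectin for complex N-glycans. In older cKO mice they reported reduced *Mgat2* RNA and protein in germ cells. Libraries held 12584726 to 15907505 counts, so that 3 counts, taken as the detection floor for counting error only, were worth 0.189 to 0.238 CPM. Both samples numbered 1 stood apart from the rest of their genotype. The summed TPM of 10 pachytene spermatocyte markers was 2280 in control 1 and 1010 at most in the other controls, and 806 in cKO 1 and 349 at most in the other cKO samples. Values without both samples numbered 1, a choice made with the data in view, are therefore given beside the results. Markers of germ cells were present in every library, as were those of Sertoli cells, whose 11 markers, *Clu* foremost, summed to 6000 to 7400 TPM in controls and 6240 to 7380 in cKO samples. The 8 round spermatid markers summed to 32.3 to 79.4 TPM in controls and 17.9 to 33.5 in cKO samples. Of these, *Prm1* and *Tnp2* were at 0 in every library.

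In control germ cells *Mael*, *Fkbp6*, *Ddx4* and *Mov10l1* were the most abundant of the 33 transcripts. TPM is a level scaled for transcript length and so allows genes to be compared. *Mael*, whose product Maelstrom is needed for processing of piRNA precursors, was at 465, 259, 292 and 219 TPM in control samples 1 to 4 and at 310, 196, 207 and 189 TPM in cKO samples 1 to 4. *Fkbp6*, a co-chaperone that acts with HSP90 in loading of PIWI proteins, was at 209, 221, 184 and 221 TPM in controls and at 237, 186, 208 and 212 TPM in cKO samples. *Ddx4*, the germ cell helicase also called mouse vasa homolog, was at 193, 172, 198 and 142 TPM in controls and at 145, 123, 132 and 127 TPM in cKO samples. All of these but *Fkbp6* had a lower mean TPM in cKO samples, and each overlapped between genotypes. *Mov10l1*, the helicase that feeds precursors into the pathway, was at 160, 146, 171 and 138 TPM in controls and at 145, 140, 126 and 138 TPM in cKO samples. Among the 4, each overlapped the next in its range of control TPM, although *Ddx4* exceeded *Mov10l1* within every control library.

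**Figure D1:**
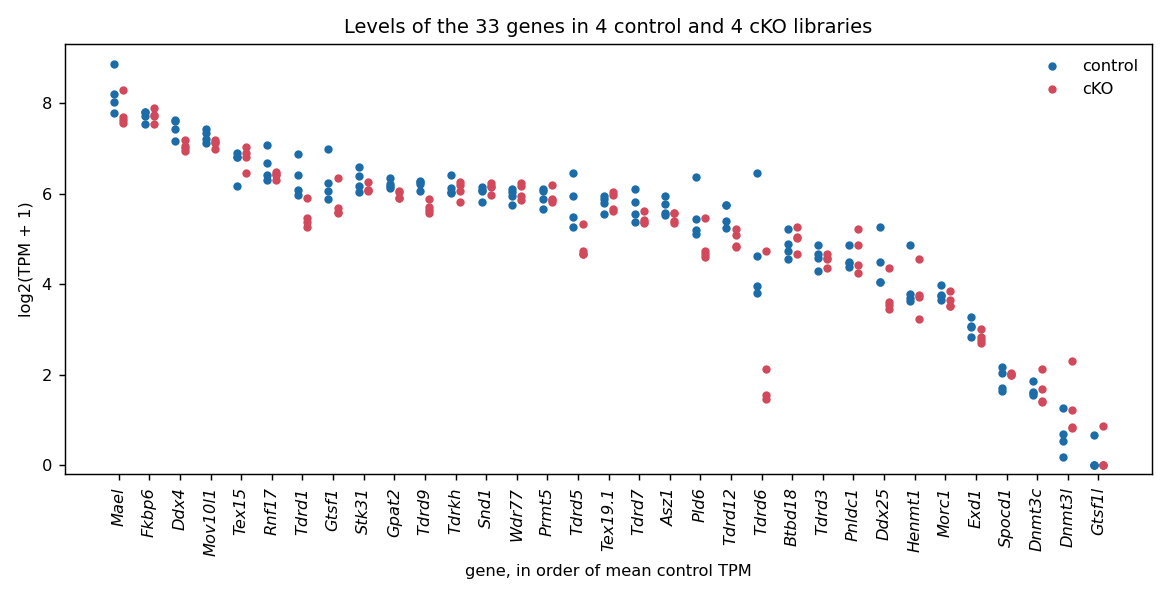
Points show log2(TPM + 1) of each of the 33 genes, in order of mean control TPM, in 4 control libraries (blue) and 4 cKO libraries (red). *Mael* stands first at a control mean of 309 TPM and *Gtsf1l* last at 0.15 TPM, and *Tdrd6* has the widest spread among the genes above 1 TPM.

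The levels ran from 309 ± 109 TPM (SD, n = 4) for *Mael* down to 0.65 ± 0.531 TPM for *Dnmt3l* and 0.15 ± 0.3 TPM for *Gtsf1l*. Of the 32 pairs of neighbours in this order, 28 had overlapping control ranges and cannot be ranked by range alone. Ranges do not compare genes within a library, and some of these pairs kept their order in every control. *Rnf17*, at 133, 77.6, 102 and 84.8 TPM in control samples 1 to 4, exceeded *Tdrd1*, at 117, 66.6, 83.7 and 61.7 TPM. The ranges separated only between *Mov10l1* and *Tex15*, between *Morc1* and *Exd1*, between *Exd1* and *Spocd1*, and between *Dnmt3c* and *Dnmt3l*. At least 1 TPM was reached in every sample by 31 of the 33 genes. The least abundant were 3 genes of fetal piRNA-directed DNA methylation, *Spocd1* at 2.75 ± 0.659 TPM, *Dnmt3c* at 2.16 ± 0.314 TPM and *Dnmt3l*, and *Gtsf1l*, a paralog of the PIWI cofactor gene *Gtsf1*. *Tex15* and *Tdrd9*, whose products work with the PIWI protein MIWI2, were far higher, at 104 ± 22.1 and 72.7 ± 4.89 TPM. *Gtsf1l* had 3 counts in control 2, 4 counts in cKO 3 and 0 in the other libraries, did not reach 1 TPM in any sample and was not tested. The other 32 genes were tested.

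The promoters of these genes were compared with those of all genes. RefSeq windows of 300 bases, from 250 before to 50 after the start of transcription (GRCm38.p6), were given for 26 of the 33 genes, 7 of which had more than 1 window. CACGTG, the palindromic E-box bound by basic helix-loop-helix factors, the family of TCFL5, was present in a window of 11 of the 26, or 42.3%. It was present in 8.91% of 17491 protein-coding genes with a window and in 11.3% of the 11745 of these that were tested. The 26 genes therefore held this motif more often than protein-coding genes at large, as a description without a test. The motif contains a CpG, and the windows of the set had a median GC content of 61.8% against 56.3% for all windows, and the part of GC content in the share was not tested. CAGTTG, a form of the MYB site, was present in 7.69% of the 26 genes and 14.2% of protein-coding genes, and CCAAT, the NF-Y box, in 13 of the 26 and in 42.3% of protein-coding genes. All motifs were searched on both strands. The promoters below, 1 window for each gene, are printed 5′ to 3′ on the strand of the gene with CACGTG in capitals. They are those of the 7 genes with a window among the 8 called by DESeq2 once both samples numbered 1 were left out, so that they were chosen by their values. The motif was present in *Tdrd9*, *Tdrd1*, *Mael*, *Ddx25* and *Pld6* and not in *Tdrd12* and *Tdrd5*.
*Tdrd9* (chr12:111971309-111971608, + strand): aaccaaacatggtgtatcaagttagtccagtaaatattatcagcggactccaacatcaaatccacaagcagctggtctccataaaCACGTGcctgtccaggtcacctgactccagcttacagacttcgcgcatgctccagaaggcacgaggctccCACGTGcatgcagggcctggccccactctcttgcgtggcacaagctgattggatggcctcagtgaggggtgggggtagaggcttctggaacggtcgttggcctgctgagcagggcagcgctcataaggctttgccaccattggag
*Tdrd1* (chr19:56825959-56826258, + strand): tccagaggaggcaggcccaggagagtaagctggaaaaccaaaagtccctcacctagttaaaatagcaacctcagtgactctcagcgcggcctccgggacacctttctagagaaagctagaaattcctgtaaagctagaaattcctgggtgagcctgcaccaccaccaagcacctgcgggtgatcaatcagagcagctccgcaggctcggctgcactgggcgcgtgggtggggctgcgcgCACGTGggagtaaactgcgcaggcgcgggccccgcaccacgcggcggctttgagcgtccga
*Mael* (chr1:166238695-166238994, − strand): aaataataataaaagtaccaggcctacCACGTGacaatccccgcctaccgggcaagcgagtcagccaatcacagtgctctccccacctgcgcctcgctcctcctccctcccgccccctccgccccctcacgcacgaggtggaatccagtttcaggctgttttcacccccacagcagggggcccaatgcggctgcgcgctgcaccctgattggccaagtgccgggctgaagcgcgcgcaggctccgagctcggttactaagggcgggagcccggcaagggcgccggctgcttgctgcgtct
*Ddx25* (chr9:35558421-35558720, − strand): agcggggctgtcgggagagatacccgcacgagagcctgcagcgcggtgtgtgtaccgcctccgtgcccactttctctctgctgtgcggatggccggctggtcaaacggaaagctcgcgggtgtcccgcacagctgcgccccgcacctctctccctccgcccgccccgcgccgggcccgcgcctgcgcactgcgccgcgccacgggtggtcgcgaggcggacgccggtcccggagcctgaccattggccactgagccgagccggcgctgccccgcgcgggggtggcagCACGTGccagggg
*Pld6* (chr11:59787608-59787907, − strand): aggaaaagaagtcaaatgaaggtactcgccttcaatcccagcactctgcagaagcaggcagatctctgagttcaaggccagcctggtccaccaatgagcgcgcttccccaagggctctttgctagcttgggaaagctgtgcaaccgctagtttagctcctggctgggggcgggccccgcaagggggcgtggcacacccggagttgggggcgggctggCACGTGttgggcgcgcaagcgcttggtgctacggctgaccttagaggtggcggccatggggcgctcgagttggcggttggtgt
*Tdrd12* (chr7:35537666-35537965, − strand): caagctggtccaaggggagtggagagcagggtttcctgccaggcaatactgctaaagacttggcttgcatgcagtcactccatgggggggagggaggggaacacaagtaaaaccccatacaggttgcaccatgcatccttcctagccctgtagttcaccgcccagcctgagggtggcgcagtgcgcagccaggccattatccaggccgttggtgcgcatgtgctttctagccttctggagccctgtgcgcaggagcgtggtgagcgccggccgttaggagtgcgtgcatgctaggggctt
*Tdrd5* (chr1:156303299-156303598, − strand): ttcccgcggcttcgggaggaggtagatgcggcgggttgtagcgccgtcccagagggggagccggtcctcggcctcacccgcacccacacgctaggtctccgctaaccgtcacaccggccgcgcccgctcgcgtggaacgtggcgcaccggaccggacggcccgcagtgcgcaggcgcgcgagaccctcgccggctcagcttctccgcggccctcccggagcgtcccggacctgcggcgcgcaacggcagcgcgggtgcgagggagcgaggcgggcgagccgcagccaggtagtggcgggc

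The *Tdrd9* window held the motif at 2 positions, starting 165 and 95 bases before the start of transcription. In the printed windows it began 11 bases before the start in *Tdrd1*, 33 bases in *Pld6* and 223 bases in *Mael*. In *Ddx25* it began at base 38 of the transcript. In another *Tdrd1* window it began 77 bases before the start. A further *Tdrd1* window and the other *Pld6* window did not hold it. *Ddx4*, *Stk31*, *Mov10l1*, *Fkbp6*, *Wdr77* and *Dnmt3l* also held the motif in a window. The median log2 fold change between genotypes was −0.41 over the 11 genes with the motif, of which 8 were lower, and −0.22 over the 14 tested genes with a window and without it, of which 10 were lower. The ranges of the log2 fold change, −0.86 to 0.80 with the motif and −0.99 to 0.14 without it, overlapped.

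The comparison of cKO with control asked which of these genes differed in germ cells of *Mgat2*[F/F]:*Stra8*-iCre mice at 15 days, when the first wave of spermatogenesis has reached meiosis. Over all 8 samples none of the 32 tested genes was called by edgeR, that is, had an adjusted p under 0.05 (Benjamini-Hochberg, over the 20187 genes tested). The quasi-likelihood test was used. Among all genes, 0.0396% were called lower and 0.0% higher. At an unadjusted p under 0.05, 7 of the 32 were lower and 0 higher, against 6.28% of all genes lower and 2.62% higher. DESeq2, the count test that the authors used, called 3 of the 32 lower and 0 higher, against 1.41% of all genes lower and 0.0892% higher. These were *Tdrd9*, *Tdrd12* and *Tdrd1*, all Tudor genes. Without both samples numbered 1, edgeR called 4 lower and 0 higher, against 3.78% and 0.451% of all genes, and DESeq2 called 8 lower and 0 higher, against 4.12% and 0.332%. In a bulk sample fewer cells of a type and less RNA per cell cannot be told apart.

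Most of the 32 genes had a lower mean in the cKO. The log2 fold change was below 0 for 22 and above 0 for 10, with a median of −0.20. Over all genes 9817 of 20187 were below 0 and the median was 0.01. A log2 fold change of −0.4 or less was found in 31.2% of the 32 genes and 18.3% of all genes, but one of −1 or less in 3.12% and 9.89%, so that lower means in this set were frequent and mostly moderate in size. All genes include any that reached 1 TPM in a single sample, while 31 of the 33 genes reached it in every sample. The shares were not matched for expression level. Of the 32, 9 changed side of 0 under at least 1 setting, of which *Henmt1* was the farthest from 0. The 4 cKO samples all lay below the 4 controls in 3 of the 32 genes, *Tdrd9*, *Tdrd12* and *Gpat2*, against 3.03% of all genes, and in none was every cKO sample above every control sample, against 2.47%. Without both samples numbered 1, 15 genes stood apart lower and 1 apart higher, against 10.5% and 8.1% of all genes. With cKO 1 alone left out 15 stood apart lower and 0 apart higher, while the shares over all genes were 9.09% and 6.13%.

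**Figure D2:**
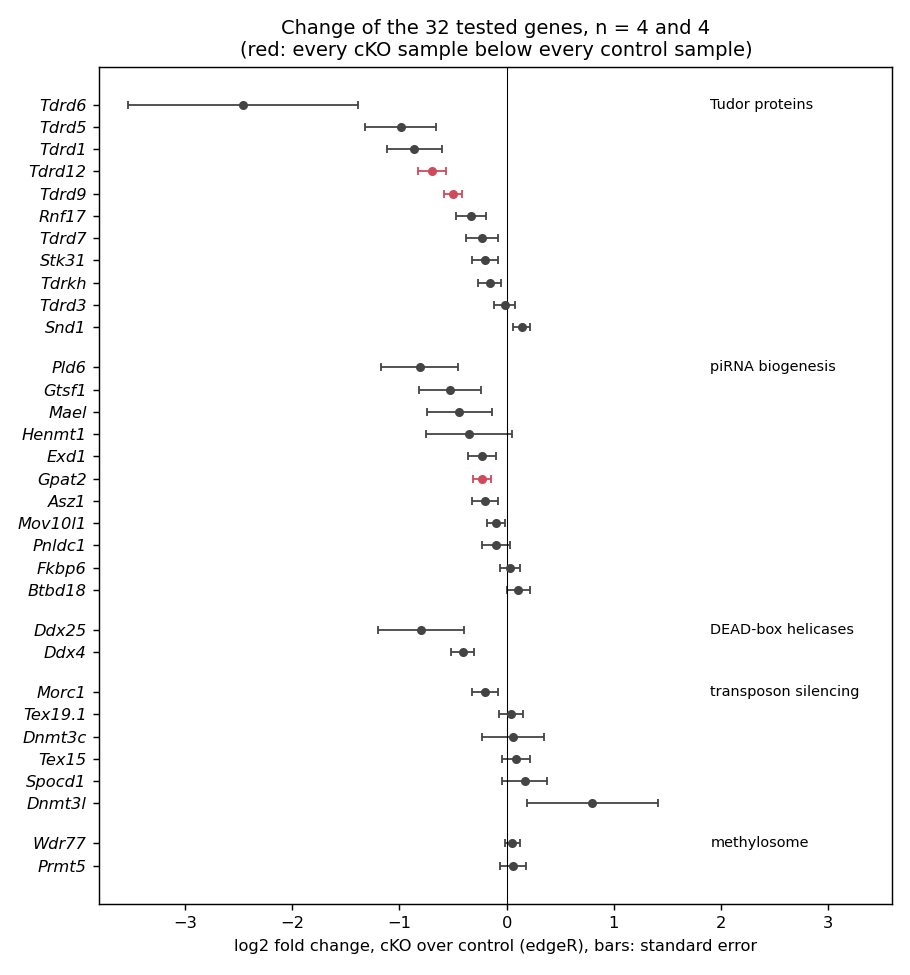
Points are edgeR log2 fold changes (cKO over control, n = 4 and 4) of the 32 tested genes, bars are standard errors, and genes are grouped by role; red marks genes in which every cKO sample lay below every control sample. The Tudor genes spread from −2.46 (*Tdrd6*) to 0.14 (*Snd1*), and the methylosome genes lie at 0.05 and 0.06.

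The 3 genes called by DESeq2 and the largest difference of the set were found among the Tudor genes. Of the 11 genes, 10 had a lower mean in the cKO, 5 had an unadjusted p under 0.05, 3 were called by DESeq2 and none by edgeR, and the median log2 fold change was −0.33. Over all genes 9817 of 20187 had a log2 fold change below 0. Of all genes, 6.28% were lower at an unadjusted edgeR p under 0.05, and DESeq2 called 1.41% lower. *Tdrd9* encodes a Tudor protein with a helicase domain that works with the PIWI protein MIWI2, and lies on chromosome 12 at 111937965 to 112035290 (GRCm39). Its CPM was 215, 199, 212 and 175 in control samples 1 to 4 and 138, 137, 141 and 150 in cKO samples 1 to 4. All cKO values were below all control values. This was a log2 fold change of −0.50 ± 0.08, or a 1.42-fold lower level, with an adjusted p of 0.053 in edgeR and 6.8e-06 in DESeq2. *Tdrd9* was thus just outside the edgeR threshold, and edgeR called it at adjusted p = 1.6e-05 without both samples numbered 1, at 0.032 without control 1, at 0.012 without control 4, at 0.037 with upper-quartile factors and at 0.034 with library totals. Over all settings its adjusted p ran from 7.9e-09 to 0.34.

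*Tdrd12*, on chromosome 7 at 35166372 to 35237216, encodes a Tudor protein required for secondary piRNAs. Its CPM was 63.7, 49.1, 61.2 and 42.9 in controls and 38.6, 31.6, 31.5 and 32.3 in cKO samples, again without overlap. The log2 fold change was −0.70 ± 0.13, a 1.62-fold lower level, with an adjusted p of 0.14 in edgeR and 0.0012 in DESeq2, and it was called by edgeR at 5.8e-05 without both samples numbered 1 and at 0.035 without control 4. Its adjusted p ran up to 0.64 when other single samples were left out. *Tdrd1*, a scaffold of intermitochondrial cement on chromosome 19 at 56814641 to 56858444, had 359, 195, 252 and 178 CPM in controls and 180, 129, 123 and 110 CPM in cKO samples. cKO sample 1 lay just above the lowest control and the other 3 lay below every control. Its log2 fold change was −0.86 ± 0.26, a 1.81-fold lower level, with an adjusted p of 0.44 in edgeR and 0.010 in DESeq2. With both samples numbered 1 left out it was −0.79 ± 0.15, with an adjusted p of 0.061 in edgeR and 6.9e-12 in DESeq2, and its edgeR adjusted p ran up to 0.82 when single samples were left out.

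**Figure D3:**
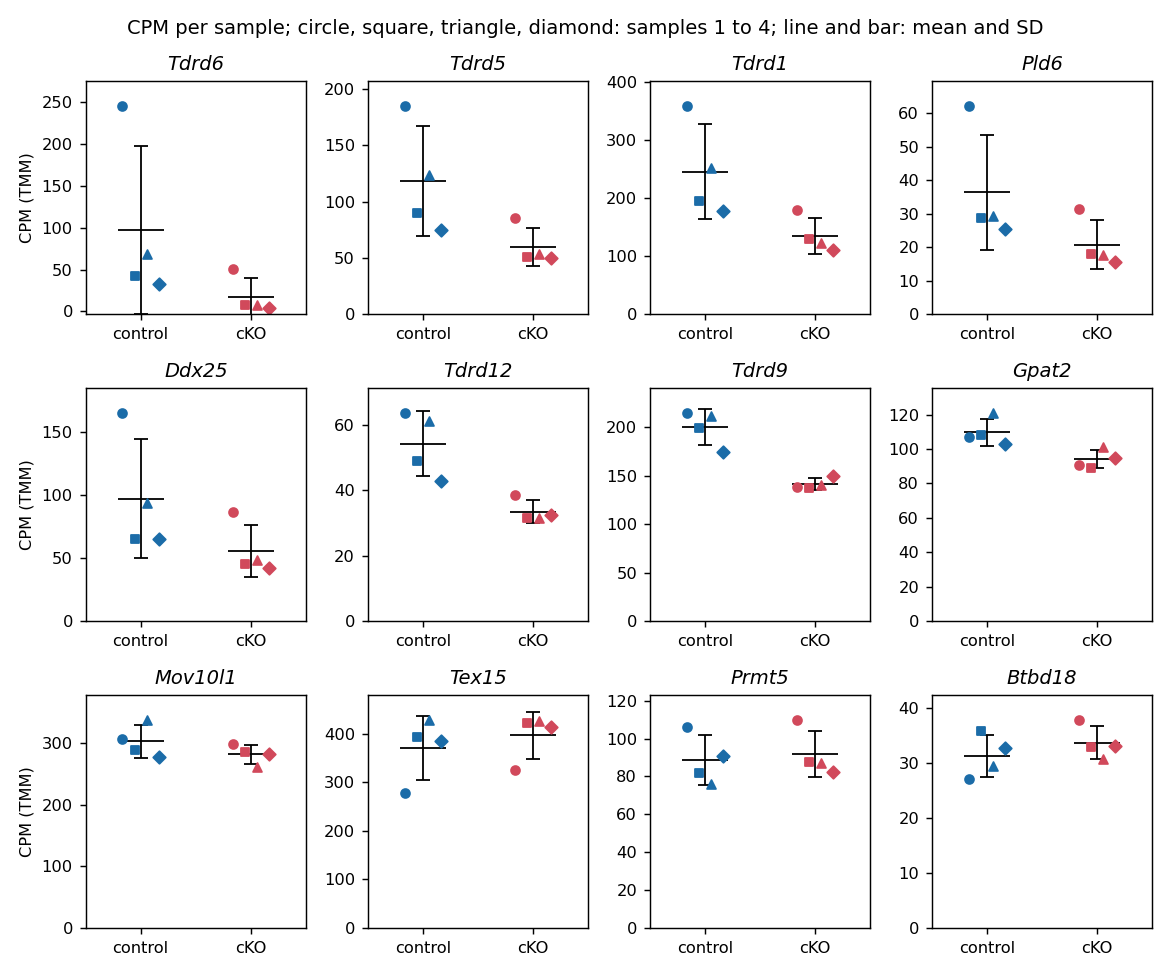
CPM (TMM-normalized, linear axes) of 12 genes in each control (blue) and cKO (red) sample, with circle, square, triangle and diamond for samples 1 to 4 and the mean and SD in black. In *Tdrd6*, *Tdrd5*, *Tdrd1*, *Pld6* and *Ddx25* sample 1 is the highest of its genotype, in *Tdrd12*, *Tdrd9* and *Gpat2* the genotypes do not overlap, and *Mov10l1*, *Tex15*, *Prmt5* and *Btbd18* overlap.

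*Tdrd6*, a large component of the chromatoid body, had the largest log2 fold change of the set and the widest spread. Its CPM was 246, 42.5, 68.4 and 33.0 in controls and 50.9, 8.09, 7.40 and 4.04 in cKO samples. Sample 1 was 5.79 times the median of the other controls and 6.87 times that of the other cKO samples, and cKO 1 overlapped the controls. For all samples the log2 fold change was −2.46 ± 1.07, with an adjusted p of 0.57 in edgeR and 0.23 in DESeq2. Without both samples numbered 1 the genotypes did not overlap and it was −2.88 ± 0.44, with an adjusted p of 0.052 in edgeR and 2.8e-09 in DESeq2. It was −1.44 without control 1 alone and −3.89 without cKO 1 alone, so that its size rests on these libraries. *Tdrd5*, needed for assembly of germ granules and for pachytene piRNAs, had 185, 90.4, 124 and 75.2 CPM in controls and 85.5, 50.9, 53.2 and 49.8 CPM in cKO samples. Its log2 fold change was −0.99 ± 0.33, with an adjusted p of 0.47 in edgeR and 0.12 in DESeq2. Over 3 and 3 samples, without those numbered 1, it was −0.92 ± 0.21, with an adjusted p of 0.13 in edgeR and 0.0011 in DESeq2.

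The other Tudor genes differed less between genotypes and were called by neither test. *Rnf17*, a RING finger and Tudor protein gene, had a log2 fold change of −0.33 ± 0.14. *Tdrd7*, of the chromatoid body, was at −0.23 ± 0.15, and *Stk31*, a kinase-like Tudor protein gene, at −0.20 ± 0.12. *Tdrkh* encodes the mitochondrial partner that helps to trim piRNAs and was at −0.16 ± 0.11. *Tdrd3*, which is expressed far beyond the germ line, was at −0.02 with a 95% confidence interval of −0.25 to 0.20. *Snd1*, a nuclease-like Tudor protein gene also broadly expressed, was at 0.14 with an interval of −0.03 to 0.31.

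Of the 12 piRNA biogenesis genes 11 were tested, 9 had a lower mean in the cKO, and the median log2 fold change was −0.23. None was called by edgeR or DESeq2 over all samples. Among all genes 9817 of 20187 were below 0, and edgeR called 0.0396% lower and DESeq2 1.41%. *Pld6* encodes the mitochondrial protein, also called MitoPLD or Zucchini, that takes part in cleavage of precursors. Its CPM was 62.1, 28.7, 29.2 and 25.3 in controls and 31.5, 18.1, 17.7 and 15.5 in cKO samples, so that only cKO 1 overlapped the controls. This gave a log2 fold change of −0.81 ± 0.36, with an adjusted p of 0.57 in edgeR. With both samples numbered 1 left out it was −0.70 ± 0.12 and was called by edgeR at 1.2e-04 and by DESeq2 at 3.3e-05. Leaving out control 1 alone gave −0.42 and leaving out cKO 1 alone −1.09. *Pld6* shares 7.95% of its exonic bases with *Mprip* on the other strand, and the libraries were not stranded. The estimated counts of *Pld6* were whole in every sample. *Mprip* itself was at a log2 fold change of −0.10.

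*Mael* was at −0.44 ± 0.30, with an adjusted p of 0.69 in edgeR, and its CPM in sample 1 was 1.87 times the median of the other controls and 1.62 times that of the other cKO samples. Without both samples numbered 1 it was at −0.37 ± 0.11, with an adjusted p of 0.15 in edgeR and 0.0031 in DESeq2, while it was −0.15 without control 1 alone and −0.65 without cKO 1 alone. *Gtsf1*, a zinc finger cofactor of PIWI slicing, was at −0.53 ± 0.29, and at −0.43 ± 0.14 without both samples numbered 1, where its adjusted p was 0.064 in edgeR and 0.11 in DESeq2. Its value was −0.20 without control 1 alone and −0.75 without cKO 1 alone. *Henmt1*, the methyltransferase of piRNA 3′ ends, was at −0.35 ± 0.40, but at 0.07 without control 1. Sample 1 was also the highest of both genotypes for *Gtsf1* and *Henmt1*.

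*Gpat2*, a mitochondrial acyltransferase family member needed for piRNAs, differed by little but without overlap. Its CPM was 107, 108, 121 and 103 in controls and 90.9, 89.2, 101 and 95.0 in cKO samples. The log2 fold change was −0.23 ± 0.08, with an adjusted p of 0.43 in edgeR and 0.14 in DESeq2. *Gpat2* shares 60.8% of its exonic bases with *Fahd2a* on the other strand, a gene with a mean of 138 counts and a log2 fold change of −0.29, and the libraries were not stranded. The estimated counts of *Gpat2* were whole in every sample, and the part of its reads that comes from *Fahd2a* was not tested. *Exd1*, whose product partners TDRD12, was at −0.23 ± 0.13 and *Asz1*, a mitochondrial anchor of the nuage, at −0.20 ± 0.12. *Mov10l1* and *Pnldc1*, the helicase and the trimming exonuclease, were both at −0.10, with intervals of −0.27 to 0.06 and −0.39 to 0.18. *Fkbp6* was at 0.03 and *Btbd18*, a nuclear regulator of piRNA precursor transcription, at 0.11, with intervals of −0.16 to 0.22 and −0.14 to 0.36.

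Both DEAD-box helicases had a lower mean in the cKO. *Ddx25*, a regulator of translation in spermatids, had 165, 65.3, 93.2 and 64.7 CPM in controls and 86.3, 45.6, 48.6 and 41.8 CPM in cKO samples. cKO 1 lay among the controls and the other 3 cKO samples lay below them. This gave a log2 fold change of −0.80 ± 0.40, with an adjusted p of 0.62 in edgeR and 0.43 in DESeq2. Over 3 and 3 samples, without those numbered 1, it was −0.72 ± 0.15 and was called by edgeR at 0.030 and by DESeq2 at 2.2e-06. It was −0.42 without control 1 alone and −1.10 without cKO 1 alone. *Ddx4* was at −0.41 ± 0.11, with an adjusted p of 0.34 in edgeR and 0.058 in DESeq2, and without both samples numbered 1 at −0.41 ± 0.14, with an adjusted p of 0.29 in edgeR and 0.14 in DESeq2.

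**Figure D4:**
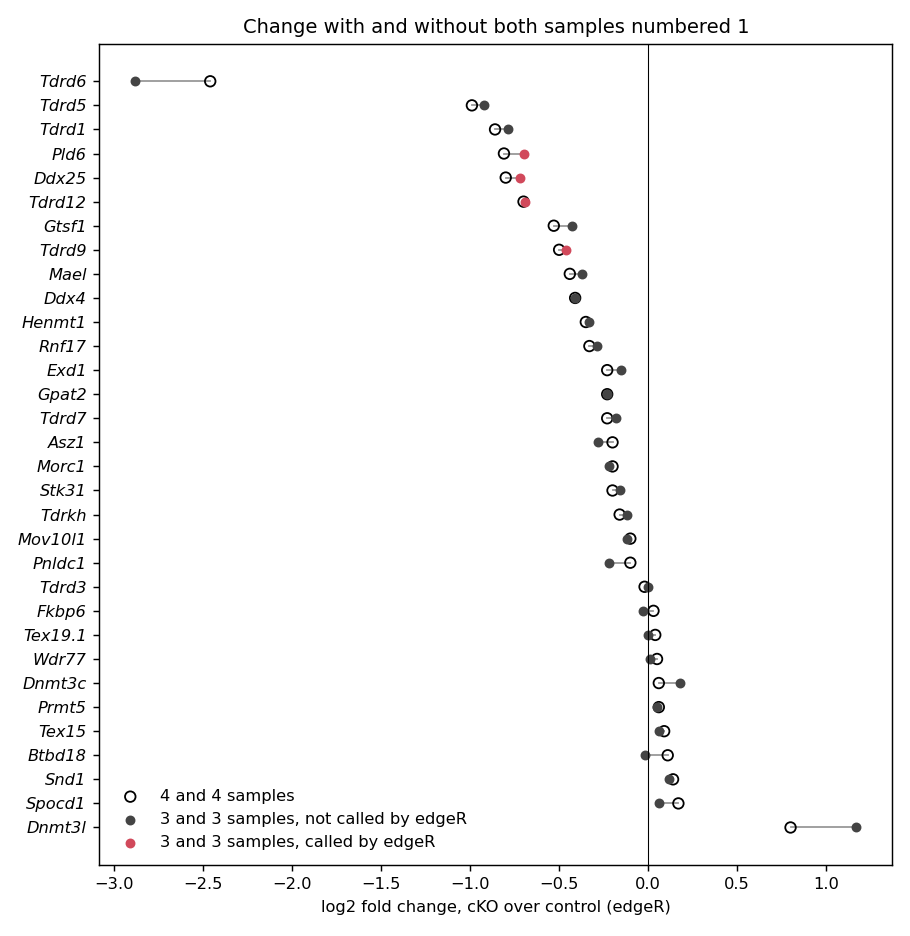
Open circles are the edgeR log2 fold changes of the 32 tested genes over 4 and 4 samples, and filled circles those over 3 and 3 samples without both samples numbered 1, red where called. *Pld6*, *Ddx25*, *Tdrd12* and *Tdrd9* are called over 3 and 3 samples and not over 4 and 4, and *Tdrd6* moves from −2.46 to −2.88.

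Genes of transposon silencing mostly lacked the lower means of the Tudor and biogenesis genes. Of the 6, 1 had a lower mean in the cKO, the median log2 fold change was 0.08 and none was called by either test. Among all genes 9817 of 20187 were below 0, with a median of 0.01, and DESeq2 called 1.41% lower and 0.0892% higher. No call among 6 genes is thus near the share of all genes. *Morc1*, an ATPase that represses transposons, was at −0.20 ± 0.12. *Tex19.1*, expressed in germ cells and needed to hold down retrotransposons, was at 0.04 and *Tex15*, a nuclear partner of MIWI2, at 0.09, with 95% confidence intervals of −0.20 to 0.28 and −0.20 to 0.39. Sample 1 was the lowest of both genotypes for *Tex15*, at 277 and 325 CPM. *Spocd1* was at 0.17, with an interval of −0.29 to 0.62, and *Dnmt3c*, a DNA methyltransferase of transposon promoters that resembles its paralog *Dnmt3b*, at 0.06, with an interval of −0.57 to 0.70. *Dnmt3l*, the cofactor of DNA methyltransferases, had the largest positive log2 fold change of the set. It had 15, 8, 2 and 5 counts in controls and 19, 9, 9 and 16 in cKO samples, or 1.02, 0.519, 0.126 and 0.390 CPM against 1.26, 0.582, 0.628 and 1.13. The genotypes overlapped and control 3 was below the floor of 3 counts. Its log2 fold change was 0.80 with an interval of −0.53 to 2.14, which at this depth allows a decrease as well as an increase.

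The methylosome genes lay close to 0. *Prmt5*, the methyltransferase that makes symmetric dimethylarginine, the mark Tudor domains read, had 106, 81.6, 75.8 and 90.7 CPM in controls and 110, 87.6, 87.1 and 82.6 in cKO samples. Its log2 fold change was 0.06, with an interval of −0.20 to 0.31. *Wdr77*, the partner of PRMT5, was at 0.05, with an interval of −0.11 to 0.20. It had estimated counts that were not whole in all 8 samples, as did *Henmt1* in 6 and *Tdrkh* and *Dnmt3c* in 3 each, so that reads shared with other genes enter these values. *Wdr77* shares 26.9% of its exonic bases with *Gm42890* on the same strand, and *Tdrkh* 32.9% with *Oaz3* on the other strand.

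Many of the lower genes were also those highest in the samples numbered 1. Of the 10 genes with a log2 fold change of −0.4 or less, control 1 was the highest control in 10 and cKO 1 the highest cKO sample in 9. Of the other 22, control 1 was highest in 9 and cKO 1 in 16. The limit was set on a fold change that includes control 1, and a high control 1 lowers that fold change. These counts are thus partly fixed by the choice of genes. Without control 1, *Mael* at −0.15 and *Gtsf1* at −0.20 lay outside the limit. Shares over all tested genes were not computed. *Tdrd9* was the exception among the 10, since cKO 1 was 0.982 times the median of the other cKO samples. The summed pachytene spermatocyte markers were likewise highest in sample 1 of each genotype, with 10 of 10 tested markers lower in the cKO, a median log2 fold change of −1.27 (8 of 10 and −0.44 without control 1, 10 of 10 and −1.98 without cKO 1) and a summed TPM of 618 to 2280 in controls and 295 to 806 in cKO samples. Early meiotic prophase markers, of which 5 of 9 were lower, summed to 966 to 1610 TPM in controls and 996 to 1290 in cKO samples. Sample 1 was the lowest of each genotype for them. Round spermatid markers summed to 32.3 to 79.4 TPM in controls and 17.9 to 33.5 in cKO samples, with sample 1 the highest of each genotype. Undifferentiated spermatogonial markers summed to 111 to 141 TPM in controls and 123 to 165 in cKO samples, and differentiating ones to 408 to 575 and 454 to 635. Among other somatic cells, peritubular myoid markers summed to 386 to 517 TPM in controls and 350 to 660 in cKO samples, and Leydig cell markers to 36.2 to 94.7 and 52.0 to 76.9. The part of these cell types in the lower levels of the piRNA pathway genes was not tested.

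Related lists outside the 33 genes, were compared by the same fit, in which edgeR called no gene of these lists over all samples. Over all genes 9817 of 20187 were below 0 in edgeR, and DESeq2 called 1.41% lower. Among PIWI genes and piRNA transcription factors 4 of 5 were lower, with 1 called by DESeq2. *Piwil1*, the PIWI gene of pachytene spermatocytes, was at 645, 206, 309 and 168 CPM in controls and 155, 58.2, 64.9 and 43.5 CPM in cKO samples. Every cKO sample lay below every control, the log2 fold change was −2.05 ± 0.61, and the adjusted p was 0.44 in edgeR and 0.035 in DESeq2. *Tcfl5* was at −0.68 ± 0.36 and *Piwil2*, expressed from fetal life to meiosis, at −0.33 ± 0.12, and without both samples numbered 1 they were called by edgeR at 0.0048 and 9.1e-04. *Mybl1* was at −0.14 ± 0.10, and *Piwil4*, the MIWI2 gene, was the highest of the list at 0.35 ± 0.21. Of 12 RNA granule and decay factors 5 were lower and none was called, from *Ybx2*, which stores germ cell mRNA, at −1.28 ± 0.37 to *Dcp2*, a decapping enzyme, at 0.14 ± 0.09. Of 20 further silencing genes 8 were lower and none was called, from *Mphosph8* at −0.16 ± 0.10 to *Hells*, a chromatin remodeller of DNA methylation, at 0.27 ± 0.09. Of 7 other Tudor domain genes 2 were lower and 1, *Phf1*, a Polycomb-like gene, was called by DESeq2 at 0.018, with a log2 fold change of −0.74 ± 0.20, and *Sgf29* was the highest at 0.20 ± 0.11. Of 5 other arginine methylation genes 3 were lower and none was called, from *Coprs*, a PRMT5 cofactor, at −0.52 ± 0.21 to *Prmt1* at 0.13 ± 0.08.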

How the data were processed

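RNA of germ cells from 4 control and 4 cKO males was measured, with 1 library per mouse. The authors aligned reads to the mouse genome (mm39, GRCm39) with STAR 2.7.9a and quantified genes with RSEM 1.3.3, per the labels and methods. They deposited RSEM expected counts and, for the same 55357 genes, TPM values; neither is normalized between samples. The deposited expected counts were rounded, since 6.37% of values were not whole. The 20187 genes that reached 1 TPM in any sample were tested with edgeR 4.0.16 (TMM, robust quasi-likelihood F-test, no covariate), Benjamini-Hochberg adjustment and a threshold of 0.05. DESeq2 1.42.0 and limma 3.58.1 were alternatives. The authors' own test was DESeq2, version 1.38.3, with the same expression filter. They reported 302 genes at a false discovery rate under 0.05, the number that DESeq2 gave here. R 4.3.3 and Python 3.11.15 were used. The test was also run on simulated counts, drawn independently for each gene and sample. These held no shared shift of the samples numbered 1, so that the run cannot show how the test behaves with one. Fold changes are on the log2 scale, cKO relative to control, and errors are standard errors unless marked SD.

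Gene positions came from GENCODE M39 (20075 of the tested genes matched) and promoters from a RefSeq table of GRCm38.p6. Groups came from sample titles, and no deposited column was left without a sample. The 33 genes and the lists were chosen with earlier results of these data known, so that their counts are no independent evidence. The text names all 33 genes, *Mgat2*, and from the related lists those called and the ends of each range; per-sample values are given for genes called by DESeq2, with the largest positive fold change or with the highest TPM, and *Tdrd6*, *Tdrd5*, *Pld6*, *Ddx25*, *Gpat2*, *Prmt5* and *Piwil1* were added after their values were seen.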

Additional observations from a re-analysis of the deposited data

Results flagged for a closer look

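In 12 of 66 groups of 4 CPM values one sample lay far from the others by Dixon's criterion (the gap to the nearest value over the range of the group), where chance alone marks about 1 group in 20. The values of one library are not independent across genes. The share of such groups over all tested genes was not computed, so that the count cannot be read as particular to this set. In 10 of the 12 the sample was number 1 of its genotype and the highest. Among controls, sample 1 stood alone for *Tdrd6* at 246 CPM (others 33.0 to 68.4), for *Pld6* at 62.1 CPM (others 25.3 to 29.2) and for *Henmt1* at 24.5 CPM (others 9.98 to 11.3). Among cKO samples, sample 1 stood alone for *Tdrd6* at 50.9 CPM (others 4.04 to 8.09), for *Tdrd5* at 85.5 CPM (others 49.8 to 53.2), for *Tdrd12* at 38.6 CPM (others 31.5 to 32.3) and for *Ddx25* at 86.3 CPM (others 41.8 to 48.6). The same held for *Pld6* at 31.5 CPM (others 15.5 to 18.1), for *Henmt1* at 19.0 CPM (others 7.70 to 8.94) and for *Gtsf1* at 25.4 CPM (others 14.9 to 16.1). *Tex15* went the other way, with cKO sample 1 the lowest at 325 CPM (others 413 to 426). *Fkbp6* was low in control sample 3 at 127 CPM (others 146 to 149). The cause of these gaps was not tested.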

How the results depend on the processing

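The direction of *Tdrd9*, *Tdrd12*, *Tdrd1* and 20 other genes, 23 of the 32 tested, held under every setting tried, and the median log2 fold change of the set was −0.20 over all samples and −0.24 to −0.10 with any 1 sample left out. The number called was the unstable part. Over all genes edgeR called 8, against 302 with DESeq2, 258 with DESeq2 without independent filtering, 18 with upper-quartile factors, 17 with library totals, 35 without the expression filter, 0 with edgeR's own filter and 0 with limma-voom or limma-trend at a pseudocount of 1 or 0.1. It called 855, and DESeq2 899, without both samples numbered 1, and 0 to 32 when each sample was left out. Of the 33 genes it called 0, against 3 with DESeq2 with or without independent filtering, 1 (*Tdrd9*) with upper-quartile factors or library totals, 2 (*Tdrd9* and *Tdrd12*) without the expression filter, 4 and with DESeq2 8 without both samples numbered 1, and 0 to 2 when each sample was left out: 1 without control 1 and 2 without control 4. Genes with groups apart numbered 3, 16 without both samples numbered 1, and 3 to 15 with single samples left out, 9 without control 4 (8 lower and 1 higher, against 5.62% and 4.73% of all genes) and 15 without cKO 1 (all lower, against 9.09%). *Mgat2* was called by DESeq2 (−1.06, adjusted p = 0.025, or 0.031 without independent filtering), and ran from −1.25 to −0.86 with single samples left out. Scaling moved the median of all genes by at most 0.03 from 0.

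With the replicate number as a block, edgeR called 1464 genes and 12 of the 33 (*Tdrd6*, *Tdrd5*, *Tdrd1*, *Pld6*, *Ddx25*, *Tdrd12*, *Gtsf1*, *Tdrd9*, *Mael*, *Ddx4*, *Rnf17* and *Gpat2*), against 6.45% of all genes called lower, and of the related lists *Piwil1*, *Piwil2*, *Tcfl5*, *Upf1*, *Phf1*, *Coprs* and, higher, *Hells*. DESeq2 with the replicate block called 1223 of the 20187 genes, 1142 of them lower. It called 12 of the 33, all lower, and *Mgat2* at −1.08. The labels give the samples only a shared number, and the mice differ. Same-numbered samples correlated at 0.54, 0.15, 0.04 and 0.20 in their deviations from the group means, with a mean of 0.23. The 12 pairs with different numbers had a mean of −0.07. Control 1 correlated with cKO samples 2 to 4 at −0.29, −0.18 and −0.30. Deviations from a group mean cancel within the group, so that positive values for same-numbered samples push those of the other pairs to be negative. The negative values are thus no separate observation. Not every sample correlated best with its own number. What the number stands for was not tested.

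Values near 0 changed side. Without both samples numbered 1, *Btbd18* was at −0.02, *Fkbp6* at −0.03 and *Tex19.1* at 0.00 in edgeR, and at −0.02, −0.03 and −0.01 in DESeq2. *Dnmt3c* was at −0.01 with limma-trend at a pseudocount of 0.1, *Pnldc1* at 0.14 with limma-trend at either pseudocount, and *Tdrd3* at 0.00 with upper-quartile factors. With single samples left out, *Dnmt3c* ran from −0.21 to 0.18, *Fkbp6* from −0.04 to 0.09, *Henmt1* from −0.75 to 0.07, *Prmt5* from −0.04 to 0.15, *Tdrd3* from −0.10 to 0.03, *Tex15* from −0.02 to 0.18 and *Tex19.1* from −0.05 to 0.10. The cause of these changes was not tested. Depth limits *Dnmt3l* and *Gtsf1l*, with at most 19 and 4 counts in a library.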
